A study of Homo sapiens with 27 samples.

Results

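The genes described here build the moving core of cilia and carry material along cilia of all kinds. They are the protein-coding genes of the deposited tables whose symbols begin with DNAH, DNAI, DNAAF, DNAL, RSPH, TEKT, IFT or BBS followed by a number, with DNALI1 taken in by the same rule. The rule used names only and no measured value, and 54 of the 18142 protein-coding genes listed met it. Of the 54 members, 33 belong to the motile axoneme (14 DNAH, 1 DNAI, 3 DNAAF, 3 DNAL, 7 RSPH and 5 TEKT genes) and 21 to cilia in general (13 IFT and 8 BBS genes). One of the DNAH symbols, DNAH10OS, names a gene on the opposite strand of DNAH10 and not a dynein.

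A motile cilium is built on an axoneme, a ring of microtubule doublets around a central pair. Outer and inner dynein arms, made of DNAH heavy chains with DNAI and DNAL chains, slide the doublets past each other after DNAAF proteins have assembled the arms in the cytoplasm, radial spokes (RSPH proteins) relay signals from the central pair, and tektins line the doublets. Intraflagellar transport (IFT) is needed in motile and primary cilia alike: IFT-B carries cargo to the tip with kinesin, IFT-A brings it back with dynein, and the BBSome, a coat of BBS proteins, moves membrane proteins out. Normal mammary luminal cells carry at most a primary cilium, and many breast cancer lines carry few; dense tufts of motile cilia belong to multiciliated cells such as those of the airway and the oviduct.

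RNA was sequenced from 3 human breast cancer cell lines harvested 48 h after transfection with one of 3 siRNA reagents: a pool that targets TLE3 (siTLE3), a pool that targets FOXA1 (siFOXA1), or the siNS control, which is not meant to silence any gene. T47D is an oestrogen receptor-positive luminal line, SKBR3 carries an amplified ERBB2 gene, and MDA-MB-453 is a line known for its androgen receptor. TLE3 is a corepressor without DNA binding of its own, and FOXA1 is a forkhead pioneer factor of luminal cells. Each of the 9 groups had 3 libraries, all groups received an siRNA by reverse transfection, and no untransfected cells are among these samples. The labels number the libraries of a group as biological replicates without saying whether each came from its own culture, so p-values measure the spread between these libraries.

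The libraries held 15968223 to 26208135 counts in genes. The siTLE3 libraries had less TLE3 mRNA than siNS libraries in T47D (36.4 to 40.3 against 131 to 140.4 CPM, counts scaled to library size within a line), SKBR3 (25.8 to 35.8 against 106 to 110.0 CPM) and MDA-MB-453 (30.7 to 31.8 against 141 to 162 CPM). FOXA1 was lower under siFOXA1 in the same 3 lines (76.9 to 91.1 against 382 to 399.6 CPM, 77.0 to 80.9 against 335 to 397 CPM, and 133 to 148 against 729.7 to 817 CPM). The 2 targets also moved with each other: TLE3 fell under siFOXA1 in MDA-MB-453 (log2 fold change −0.79) and rose in T47D (0.22), and FOXA1 rose under siTLE3 in T47D (0.54). In SKBR3, libraries siTLE3 1 and siNS 3 stood apart from the rest of their groups, with root-mean-square log2 gaps over all genes of 0.445 and 0.528, against 0.143 to 0.311 in the other SKBR3 libraries and 0.152 to 0.247 in the other lines; SKBR3 calls on members are given with and without them, while counts over lists of other genes use all libraries. Luminal keratins were high in all 3 lines. A 6-gene luminal list summed to 14545 to 16683 CPM under siTLE3, 20639.6 to 24269.99 under siFOXA1 and 16740.2 to 17773 under siNS in T47D, to 7737 to 11636, 10225 to 10349.96 and 10763 to 16213 in SKBR3, and to 6051 to 6248, 7619.5 to 7970.4 and 4449 to 4768 in MDA-MB-453. CDH1 was at or under 0.846 CPM in SKBR3, and a 5-gene leukocyte list summed to at most 1.94 CPM in any library. A 6-gene fibroblast list moved with the groups, at 76.0 to 81.6 CPM under siTLE3, 48.5 to 64.1 under siFOXA1 and 117 to 137 under siNS in T47D. The same list summed to 17.4 to 22.4, 14.8 to 20.3 and 21.5 to 32.4 CPM in SKBR3, and to 114 to 129, 53.4 to 61.2 and 160.2 to 181 CPM in MDA-MB-453. COL1A1, a collagen chain, made up most of these sums (45.2 to 132 CPM in T47D and 53.4 to 180.1 CPM in MDA-MB-453); DCN and PDGFRA were at or under 0.212 and 0.181 CPM where listed. A 4-gene endothelial list, mostly CDH5, summed to 15.04 to 18.99 CPM under siTLE3, 9.46 to 12.4 under siFOXA1 and 8.74 to 11.98 under siNS in SKBR3; it was at or under 1.53 CPM in the other lines, and PECAM1 was not listed. The part of these genes in the members' changes was not tested.

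Fold changes below are siRNA over siNS on the log2 scale with the standard error in parentheses, and adjusted p is from edgeR's quasi-likelihood test with Benjamini-Hochberg adjustment over all genes tested. A member rose or fell where adjusted p was under 0.05, and a gene was tested where its counts passed edgeR's low-count filter. Of the 54 members, 44 were listed in all 6 tables and 30 passed the filter in all 6 comparisons with siNS, 20 of them IFT or BBS genes. Another 15 passed in some comparisons, and 9 passed in none, all of them motile. In all, 36 members were called in at least 1 comparison, 18 of them motile and 18 general. The share of all genes called at least once was not counted. In T47D siTLE3 alone, 25.3% of all genes tested were called higher and 26.6% lower, so these counts do not set the members apart. In bulk RNA, fewer cells expressing a gene and less of its RNA per cell cannot be told apart.

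The sequences upstream of the 4 members printed below are shown because these genes are among the larger rises after TLE3 silencing in T47D; DNAAF1 is not shown. They are the 250 bases before the most upstream start that RefSeq lists for each gene (GRCh38.p14), 5′ to 3′ in the direction of the gene. Capitals mark GTTGCC, or GGCAAC where the match is on the opposite strand, a word of the X-box, the site bound by the RFX factors of ciliated cells. DNAH6 lies at chr2:84516248-84516497 on the + strand, DNAI1 at chr9:34458555-34458804 on the + strand, DNAH5 at chr5:13944689-13944938 on the − strand and RSPH4A at chr6:116616229-116616478 on the + strand.

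DNAH6: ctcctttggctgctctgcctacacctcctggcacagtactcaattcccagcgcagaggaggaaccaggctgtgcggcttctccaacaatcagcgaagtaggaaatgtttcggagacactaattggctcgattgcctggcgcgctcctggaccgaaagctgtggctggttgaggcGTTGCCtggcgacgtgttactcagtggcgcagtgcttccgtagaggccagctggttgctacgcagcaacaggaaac

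DNAI1: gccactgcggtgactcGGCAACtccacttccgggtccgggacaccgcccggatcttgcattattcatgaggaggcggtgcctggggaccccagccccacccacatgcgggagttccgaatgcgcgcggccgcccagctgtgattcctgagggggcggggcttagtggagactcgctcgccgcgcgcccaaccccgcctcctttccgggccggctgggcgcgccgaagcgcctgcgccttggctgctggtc

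DNAH5: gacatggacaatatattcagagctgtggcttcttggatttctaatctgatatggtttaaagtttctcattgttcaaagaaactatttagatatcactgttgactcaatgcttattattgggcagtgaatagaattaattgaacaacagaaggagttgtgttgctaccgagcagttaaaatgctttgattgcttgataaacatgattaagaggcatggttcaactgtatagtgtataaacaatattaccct

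RSPH4A: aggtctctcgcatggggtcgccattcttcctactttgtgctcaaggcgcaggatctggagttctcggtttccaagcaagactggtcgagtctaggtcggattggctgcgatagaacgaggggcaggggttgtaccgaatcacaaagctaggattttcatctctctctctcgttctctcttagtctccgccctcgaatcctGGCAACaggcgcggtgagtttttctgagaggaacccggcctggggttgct

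The match lies 76 bases before the DNAH6 start on the gene's own strand, and 234 and 50 bases before the DNAI1 and RSPH4A starts on the opposite strand; the DNAH5 window holds none. Over both strands, 12 of 26 motile members with a listed start hold that word (46.2%), 6 of 20 general members (30.0%) and 1647 of 15843 genes in all (10.4%). RSPH10B and RSPH10B2 are near-identical copies and both count. The forkhead words TGTTTAC and TGTTTGT occur in 3.85% and 3.85% of motile members, in 0% and 5% of general members, and in 2.25% and 3.57% of all genes. A match describes these letters only, and says nothing of a factor's binding.

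Under siNS, general members had higher levels than most motile members. On the FPKM scale, computed from the counts, the listed gene lengths and the library totals so that genes can be compared, 20 of 21 general members averaged over 1 FPKM in T47D, 18 of 21 in SKBR3 and 19 of 21 in MDA-MB-453. Of the motile members listed, 8 of 33, 7 of 29 and 6 of 32 did so in the same lines. The median motile member had 0.137 FPKM in T47D, 0.0566 in SKBR3 and 0.0792 in MDA-MB-453, against 9.29, 4.17 and 5.08 FPKM for the median general member.

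**Figure D1:**
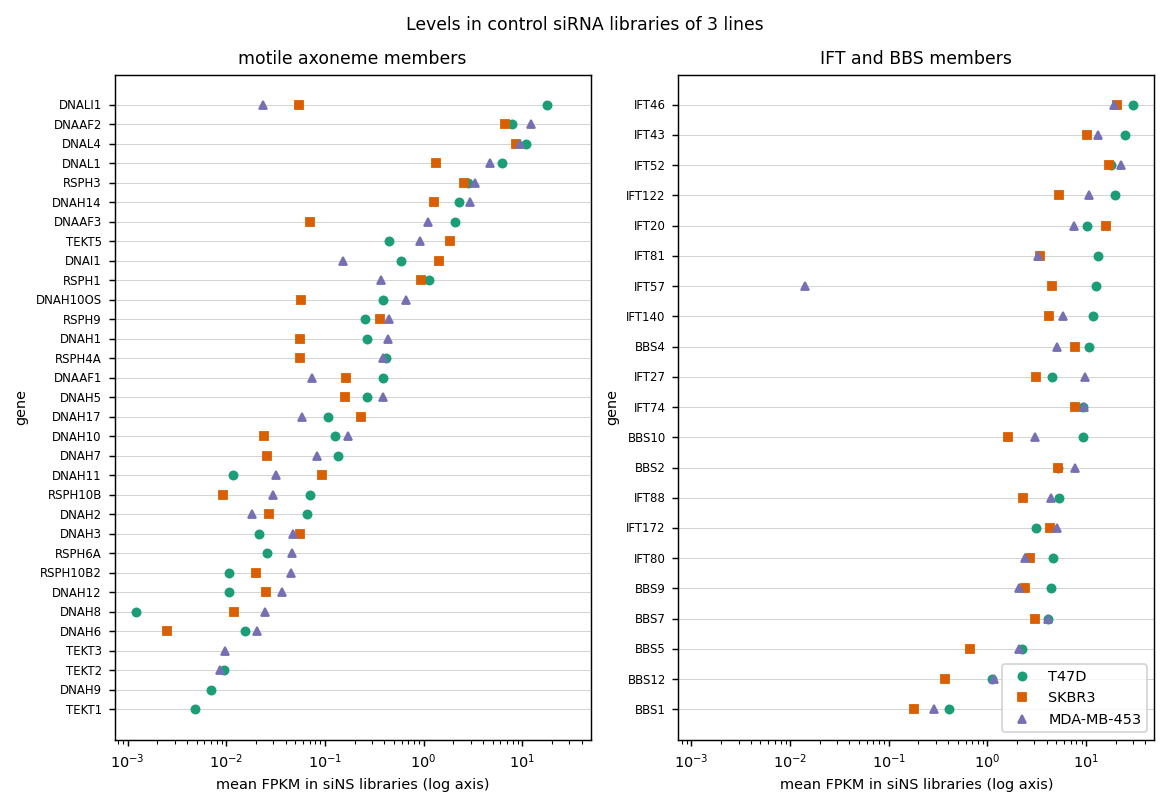
Mean FPKM of each member in the 3 siNS libraries of T47D, SKBR3 and MDA-MB-453 (log axis), with motile and general members shown apart. General members lie around medians of 9.29, 4.17 and 5.08 FPKM and most motile members lie under 1 FPKM; members with a mean of 0 or not listed are not drawn.

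IFT46, an IFT-B core protein that in Chlamydomonas helps bring outer arm dynein into the cilium, had the highest level in T47D (29.8 ± 1.66 FPKM, SD, n = 3) and SKBR3 (20.4 FPKM, and 19.3 without siNS 3). IFT52, another core protein of IFT-B, led in MDA-MB-453 (22.5 FPKM). The level of a member often differed between lines under siNS, in 18 of 22 motile and 17 of 21 general members tested, against 85.3% of all genes. The widest gaps included DNALI1, a light intermediate chain of inner dynein arms, with 65.0 ± 0.292 CPM in T47D, 0.195 ± 0.169 CPM in SKBR3 and 0.0831 ± 0.0743 CPM in MDA-MB-453. IFT57, an IFT-B protein that also binds apoptotic adaptors, had 41.0 ± 1.80, 14.96 ± 1.69 and 0.0431 ± 0.0747 CPM in the same order. Without siNS 3, SKBR3 averaged 0.244 CPM for DNALI1 and 14.4 CPM for IFT57, and 18 motile and 18 general members differed between lines, against 88.9% of all genes. Most MDA-MB-453 libraries therefore held almost no IFT57 mRNA, and the order T47D, SKBR3, MDA-MB-453 was free of overlap for IFT57, while the low DNALI1 levels of SKBR3 and MDA-MB-453 lay within each other's spread.

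In T47D cells, TLE3 silencing raised 8 and lowered 2 of the 22 motile members tested, and raised 1 and lowered 7 of the 21 general ones. Over all 15821 genes tested, 25.3% were called higher and 26.6% lower. The share of risen motile members was thus above that background and the share of fallen ones below it, while general members rose in a smaller share than all genes. The share of general members that fell (7 of 21) was near the background, and the number of general members called in either direction was 5 without siNS 2, against 8 with all libraries. DNAH6 passed the count filter through its siTLE3 libraries only; of the 18 motile members that passed it in both groups, 7 rose and 2 fell. The median log2 fold change was 0.38 over the motile members tested, −0.17 over the general ones and 0.01 over all genes.

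All 5 outer arm genes tested had positive fold changes, and 3 rose. DNAH5, an outer arm heavy chain whose mutation is a frequent cause of primary ciliary dyskinesia, had 10.97, 12.1 and 8.19 CPM in siTLE3 libraries, against 4.96, 3.91 and 3.80 CPM in siNS libraries. Every siTLE3 library was above every siNS library. The fold change was 1.33 (0.17), adjusted p = 1.75e-05. DNAI1, an outer arm intermediate chain, had 3.99, 4.33 and 5.06 CPM under siTLE3 against 2.15, 1.22 and 1.19 CPM under siNS, again without overlap, a change of 1.57 (0.25) with adjusted p = 0.000143. DNAI1 overlaps FAM219A over 1157 bases on the other strand, and whether counting used strand is not given in the sources used here, so reads of the pair may be mixed.

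DNAH6, an inner arm heavy chain, had 1.29, 0.859 and 0.730 CPM in siTLE3 libraries and 0.256, 0.212 and 0.143 CPM in siNS libraries (2.24 (0.49), adjusted p = 0.00148). These are 30, 23 and 14 reads against 5, 4 and 3, and among the comparisons with siNS the gene was tested in this one only, because of its siTLE3 reads, so the difference is given as a description. The assembly factors rose in 2 of 3 cases. DNAAF1, needed to preassemble dynein arms, had 5.27, 5.64 and 5.74 CPM under siTLE3 against 2.40, 1.80 and 1.43 CPM under siNS, a change of 1.59 (0.21) with adjusted p = 2.57e-05. DNAAF1 overlaps TAF1C over 916 bases on the other strand. DNAAF2, an assembly factor that works with heat shock chaperones, was already well expressed and rose by a smaller factor, to 29.5, 31.5 and 32.0 CPM under siTLE3 against 23.3, 24.3 and 24.1 CPM under siNS.

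Radial spoke genes were positive in 4 of 4 members tested, and 2 rose. RSPH3, a spoke stalk protein that also anchors protein kinase A, had 16.8, 14.1 and 11 CPM under siTLE3 against 8.49, 8.09 and 10.7 CPM under siNS (0.64 (0.16), adjusted p = 0.00365). RSPH4A, a spoke head protein, had 1.80, 1.98 and 2.87 CPM against 1.02, 1.80 and 0.761 CPM, with its lowest siTLE3 and highest siNS library side by side (0.91 (0.34), adjusted p = 0.0400). The RSPH4A call was lost when siTLE3 3, siTLE3 4, siNS 2 or siNS 4 was left out, with adjusted p of up to 0.158.

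The motile members that fell were among the highest under siNS. DNALI1 had 45.6, 49.9 and 56.5 CPM under siTLE3 against 64.7, 65.3 and 65.1 CPM under siNS (−0.34 (0.08), adjusted p = 0.00206). DNAH14, a heavy chain whose arm is not settled, had 24.1, 22.3 and 21.01 CPM against 31.9, 30.7 and 33.7 CPM (−0.49 (0.09), adjusted p = 0.000259). Both genes were lower in every siTLE3 library. DNAL1, an outer arm light chain named outside the rule to complete the count, rose by 0.31.

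**Figure D2:**
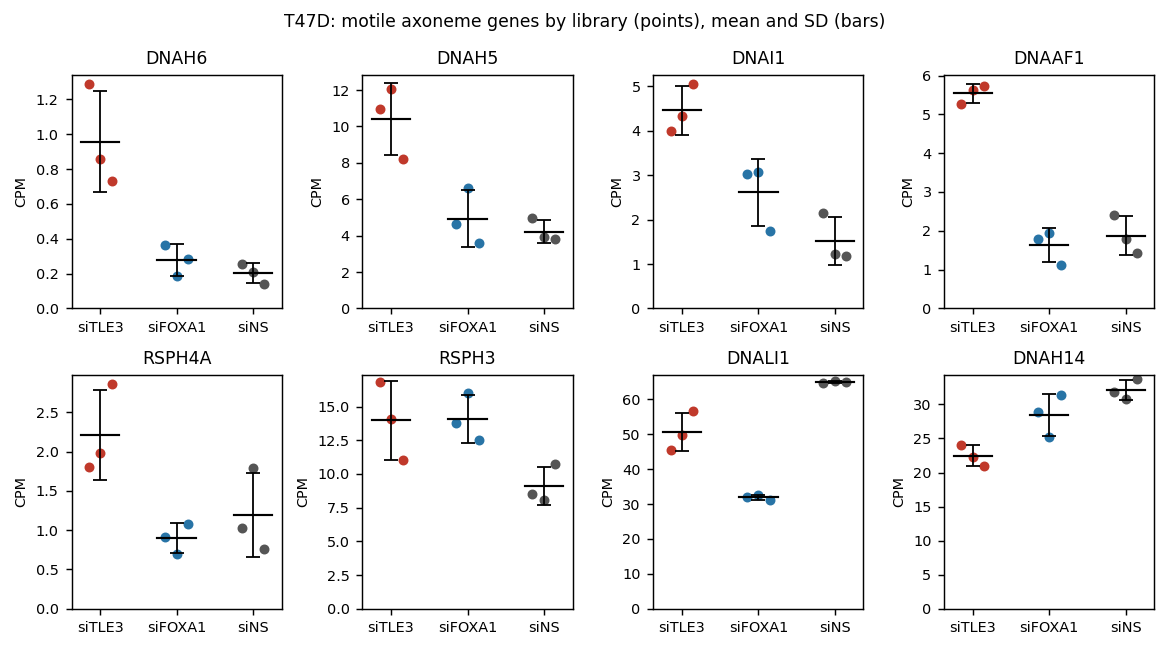
CPM of 8 motile members in each T47D library (points) under siTLE3, siFOXA1 and siNS, left to right, with the group mean (line) and SD (bar, n = 3). DNAH5 lies at 8.19 to 12.1 CPM under siTLE3 and at 3.80 to 4.96 CPM under siNS, and DNALI1 is lower under both siRNAs.

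11 motile members were not tested in this comparison because of low counts, and 3 picked here by their reads had almost all of them in siTLE3 libraries. DNAH12, an inner arm heavy chain, had 24, 12 and 32 reads under siTLE3 against 3, 3 and 0 under siNS, a ratio of 10.3 per total count with a 95% interval of 4.51 to 29.1 that covers counting error only. TEKT1 had 16, 13 and 5 reads against 1, 0 and 0, a ratio of 31.0 (5.20 to 1260.0). TEKT4 had 9, 6 and 8 reads against none, which makes it at least 6.99-fold higher against a floor of 3 reads over the group. Since these genes were picked by their reads, no test is given. RSPH6A, with 22 reads in all against 4, had a ratio of 5.01 (1.70 to 20). TEKT2 had 7 reads in all against 1 (ratio 6.38, 0.820 to 288), DNAH8 had 5 against 1 (4.56, 0.510 to 216) and TEKT3 had 2 against 0, at counts too low to show a difference. The ratio was 0.638 (0.206 to 1.86) for DNAH11, 0.586 (0.224 to 1.45) for RSPH10B and 0.912 (0.244 to 3.41) for DNAH9, and RSPH10B2 had 2 reads against 2. A table holds a gene only if the first 2 siRNA columns together count a read or more, so a gene seen only under siNS could not be listed.

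Several transport genes fell in T47D siTLE3 cells. IFT81, which binds tubulin cargo with IFT74, had 23.4, 29.8 and 27.0 CPM under siTLE3 against 40.4, 41.6 and 42.5 CPM under siNS (−0.61 (0.08), adjusted p = 3.29e-05). IFT52 had 20.4, 23.6 and 23.0 CPM against 33.2, 33.7 and 28.4 CPM (−0.49 (0.09), adjusted p = 0.000511). Both IFT-B genes were lower in all 3 siTLE3 libraries. IFT43, a small IFT-A subunit, fell by 0.39, and BBS5, a lipid-binding BBSome subunit, fell by 0.68 with adjusted p = 0.00262. On the same strand, IFT43 overlaps TTLL5 over 52943 bases and BBS5 overlaps KLHL41 over 16221 bases. TGFB3 shares 24893 bases with IFT43 on the other strand, so reads of these genes may be mixed. IFT80, BBS9 and BBS10 fell by 0.34, 0.28 and 0.24; leaving out single libraries ended the IFT80 and BBS9 calls in 4 and 5 of 6 runs, with adjusted p of up to 0.216 and 0.167.

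IFT46 was the exception among the general members. It had 68.3, 69.5 and 78.8 CPM in siTLE3 libraries and 55.7, 58.0 and 52.1 CPM in siNS libraries, without overlap (0.41 (0.08), adjusted p = 0.000495). It shares 581 and 2753 bases with ARCN1 and TMEM25 on the other strand. IFT122 and IFT140, the IFT-A subunits with the highest counts, were at −0.11 and −0.14 and were not called. Summed over their class, general members had 539 to 587 CPM in siTLE3 libraries and 624 to 642 CPM in siNS libraries, and motile members had 201 to 205 CPM against 188 to 196 CPM.

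FOXJ1, the forkhead factor that switches on motile cilium genes, was measured beside these members. It had 53.0, 54.9 and 59.9 CPM in T47D siTLE3 libraries, against 0.716, 0.423 and 0.666 CPM in siNS libraries. An 8-gene list of multiciliated cell markers that includes FOXJ1 summed to 86.5 to 94.2 CPM under siTLE3 and 22.3 to 32.0 CPM under siNS. Without FOXJ1 the sums were 33.4 to 36.9 CPM under siTLE3 and 21.6 to 31.6 CPM under siNS. In SKBR3 the list, in which FOXJ1 was not listed, was lower under siTLE3 (29.0 to 36.9 CPM) and at 38.4 to 40.8 CPM under siFOXA1, against 40.3 to 48.4 CPM under siNS. In MDA-MB-453 it was at 21.98 to 25.7, 19.4 to 22.6 and 17.6 to 23.7 CPM in the same order. Of that list in T47D, TPPP3 stayed at or under 0.411 CPM, C20orf85 at or under 0.0428 CPM and SNTN was not listed. The part of FOXJ1 or of other cells in the members' changes was not tested.

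FOXA1 silencing in T47D raised 5 and lowered 3 of 19 motile members and raised 4 and lowered 3 of 21 general ones, with medians of −0.08 and −0.07. Called genes made up 26% higher and 26.8% lower of all 15553 tested, so the shares of members called in each direction were near or below the background. The strongest change was a fall of DNALI1 to 31.9, 32.6 and 31.1 CPM under siFOXA1, against 64.7, 65.3 and 65.1 CPM under siNS (−1.02 (0.07), adjusted p = 5.29e-08). The 2 groups were far apart relative to their SDs of 0.736 and 0.292 CPM.

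Of 4 spoke genes tested under siFOXA1, 2 rose. RSPH1, a spoke head protein, had 6.42, 6.43 and 5.73 CPM against 3.43, 3.44 and 3.09 CPM (0.91 (0.16), adjusted p = 0.000377), and it overlaps SLC37A1 over 337 bases on the other strand. RSPH3 had 13.8, 16.0 and 12.5 CPM against 8.49, 8.09 and 10.7 CPM (0.64 (0.14), adjusted p = 0.00145). Neither gene's groups overlapped. DNAI1 rose by 0.80 with overlapping groups (adjusted p = 0.0476, up to 0.164 when siFOXA1 or siNS libraries were left out). DNAL4, a dynein light chain, and DNAAF2 rose by 0.32 and 0.26, and each call was lost without siNS 2 (adjusted p of 0.0957 and 0.0595). DNAH10OS and DNAAF3, an assembly factor, fell by 1.19 and 0.63; the DNAAF3 call was lost without siFOXA1 2 or siNS 3 (adjusted p of up to 0.153).

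All 3 IFT-A members tested in T47D siFOXA1 cells had negative fold changes and 2 fell: IFT122 to 65.8, 65.3 and 54.6 CPM under siFOXA1, against 95.2, 88.9 and 90.5 CPM under siNS (−0.55 (0.08), adjusted p = 7.9e-05), and IFT140 by 0.28. IFT-B members were called in both directions. IFT57 had 50.9, 53.8 and 63.5 CPM against 42.9, 39.4 and 40.6 CPM (0.46 (0.09), adjusted p = 0.000605), IFT88 rose by 0.43 and IFT74 by 0.39, while IFT80 fell by 0.47. BBS2, a BBSome subunit, rose by 0.30, a call lost without siNS 4 (adjusted p = 0.105).

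The siRNAs were then compared with each other, which does not use the siNS libraries that both comparisons share. In T47D, 10 motile members were higher and 3 lower under siTLE3 than under siFOXA1 of 22 tested, and 2 general members were higher and 8 lower of 21, against 22.5% higher and 21.8% lower of all genes. DNAH2, DNAH6 and DNAH12, 3 of the higher motile members, passed the count filter through their siTLE3 libraries only. Of the 17 motile members that passed it in both groups, 7 were higher and 3 lower, against 22.4% and 23.7% of all such genes, and the general counts did not change. DNAH12 had 24, 12 and 32 reads under siTLE3 and 2, 1 and 3 under siFOXA1, and DNAH2 had 37, 36 and 31 against 3, 18 and 2; both are given as a description. DNAAF1 was at 5.27, 5.64 and 5.74 CPM under siTLE3 and 1.79, 1.96 and 1.13 CPM under siFOXA1 (1.79 (0.22), adjusted p = 3.8e-05). DNALI1 was higher under siTLE3 by 0.69 (adjusted p = 5.8e-05), although it was below siNS in both. IFT88 (−0.58), IFT57 (−0.53) and IFT122 (0.46) were the other members with the smallest p-values, and IFT-B core members were called lower under siTLE3 in 4 of 6 cases.

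**Figure D3:**
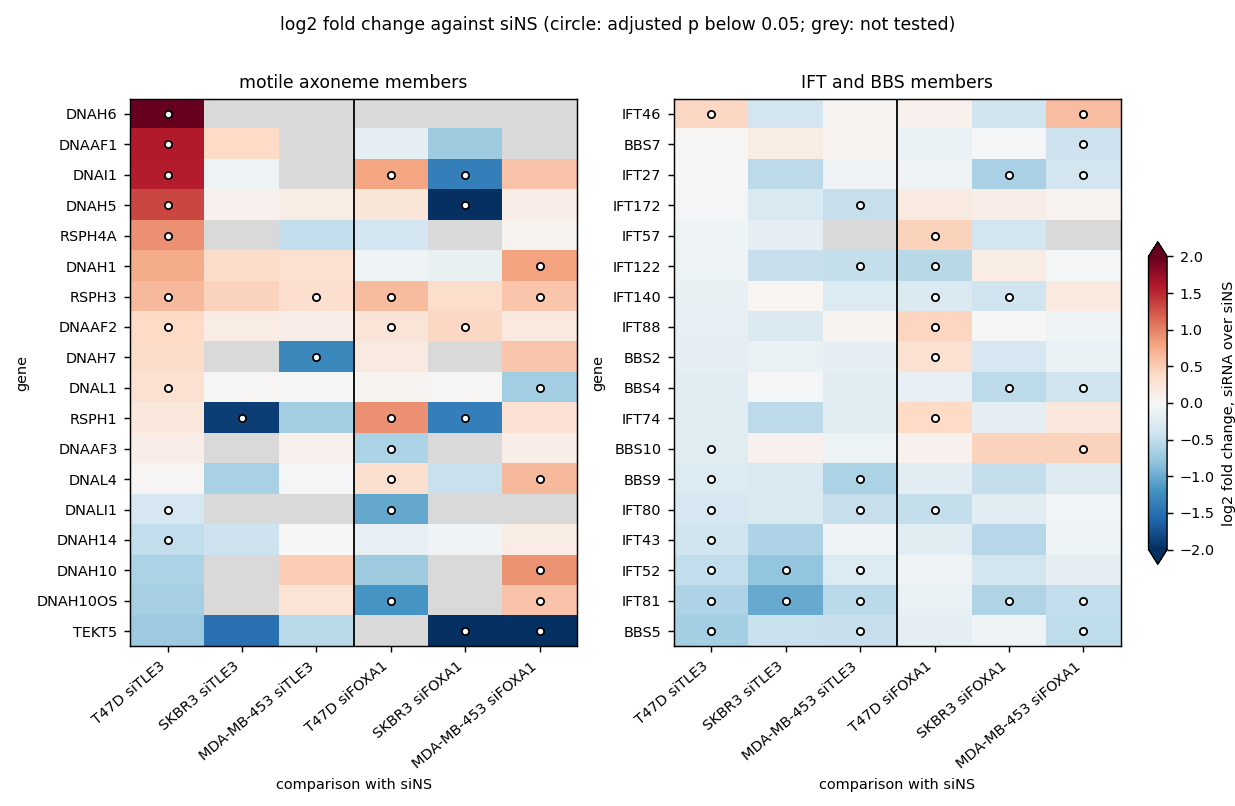
Log2 fold change against siNS (colour, capped at 2 in either direction) of the 36 members called in at least 1 of 6 comparisons, 18 motile and 18 general; siTLE3 columns stand left of siFOXA1 columns within each line. Circles mark adjusted p under 0.05 and grey cells were not tested; IFT81 is circled in 5 of 6 comparisons.

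In SKBR3, TLE3 silencing lowered 1 of 15 motile and 2 of 21 general members and raised none, against 3.67% of genes called higher and 1.99% called lower. RSPH1, the fallen motile member, passed the count filter through its siNS libraries only; of the members that passed it in both groups, none of 11 motile and 2 of 19 general ones fell, against 2.12% of all genes. The 3 fallen members are RSPH1, a spoke head gene, and 2 IFT-B genes, IFT81 and IFT52, which also fell in T47D. IFT81 had 5.98, 5.50 and 4.80 CPM under siTLE3 against 12.5, 11.2 and 8.83 CPM under siNS (−1.003 (0.20), adjusted p = 0.0228). IFT52 had 17.6, 17.8 and 18 CPM against 31.1, 27.3 and 33.4 CPM (−0.79 (0.15), adjusted p = 0.0207), and its siTLE3 libraries differed from each other by far less than its siNS libraries did. RSPH1 had 1.33, 0.462 and 0.540 CPM against 2.20, 2.53 and 3.70 CPM (−1.88 (0.45), adjusted p = 0.0451), which is given as a description. None of the 3 genes overlapped between groups.

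The 6 IFT-B core members tested were all below siNS in SKBR3 siTLE3 cells, and the median over the 21 general members was −0.30. Leaving out single libraries ended the calls of IFT81, IFT52 and RSPH1 in 5, 4 and 5 of 6 runs, with adjusted p of up to 0.118, 0.118 and 0.174. Leaving out the 2 libraries that stood apart had the opposite effect: 28.7% of genes were then called, and 7 general members and 1 motile member fell. Without those libraries IFT81 was at −1.19 (0.16) with adjusted p = 6.94e-05, IFT52 at −0.70 with adjusted p = 0.00019, and RSPH1 at −2.23 with adjusted p = 0.00126. The added general members were IFT74 (−0.81), IFT88 (−0.69), IFT80 (−0.65), IFT172 (−0.40) and IFT122 (−0.31). Over all genes, deviations from the group mean in siTLE3 1 went with those in siNS 1 and siNS 2 (r = 0.626 and 0.539). Those in siTLE3 3 went with siNS 3 (0.730) and against siNS 1 and siNS 2 (−0.668 and −0.615). The libraries kept in that run may therefore differ by this shared pattern as well as by siRNA, and the 2 cannot be told apart.

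FOXA1 silencing in SKBR3 lowered 4 and raised 1 of 16 motile members and lowered 4 of 21 general ones, against 10.4% of genes called higher and 8.75% called lower. The share of general members that fell was above the background, but the number called ran from 0 to 12 when single libraries were left out. DNAH5 and TEKT5 passed the count filter through their siNS libraries only; of the 11 motile members that passed it in both groups, 2 fell and 1 rose, against 9.07% and 10.9% of all such genes. DNAH5 had 0.712, 0.291 and 0.315 CPM under siFOXA1 against 3.23, 2.48 and 2.02 CPM under siNS (−2.57 (0.40), adjusted p = 0.00413). TEKT5, a tektin known from sperm flagella, had 0.438, 0.415 and 0.631 CPM against 3.43, 2.00 and 3.75 CPM (−2.61 (0.36), adjusted p = 0.00227). Since both genes were tested because of their siNS reads, these differences are given as a description.

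DNAI1, the outer arm partner of DNAH5, had 1.92, 1.37 and 1.04 CPM under siFOXA1 against 3.72, 3.21 and 4.18 CPM under siNS (−1.37 (0.27), adjusted p = 0.0114). RSPH1 had 1.26, 1.25 and 0.766 CPM against 2.20, 2.53 and 3.70 CPM (−1.36 (0.32), adjusted p = 0.0219). Both were lower in every siFOXA1 library; the DNAI1 call was lost without siFOXA1 2 (adjusted p = 0.0583) and the RSPH1 call in 3 of 6 runs (up to 0.0853). Without siNS 3 the values were −1.28 for DNAI1 and −1.12 for RSPH1, both still called. Those of DNAH5 and TEKT5, given as a description, were −2.73 and −2.44. DNAAF2 rose by 0.42, and by 0.36 without siNS 3.

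Among general members, IFT81 fell to 6.63, 6.40 and 8.25 CPM under siFOXA1, against 12.5, 11.2 and 8.83 CPM under siNS (−0.61 (0.18), adjusted p = 0.0487), with only a small gap between its highest siFOXA1 and lowest siNS library. The call was lost in 5 of 6 runs that left out a library, with adjusted p of up to 0.180. IFT27, a small GTPase of IFT-B, IFT140 and BBS4, a BBSome subunit, fell by 0.66, 0.39 and 0.53, and by 0.47, 0.43 and 0.60 without siNS 3. All 6 IFT-B core and all 6 BBSome members tested had negative fold changes, where the median over all genes was −0.0005. Some of these values were near 0 (IFT88 −0.01, BBS7 −0.04 and BBS5 −0.08), and BBS5 was at 0.04 without siNS 3. Without siNS 3 the number of general members called was 12 and that of motile ones 6, while 45.2% of all genes were called, and IFT81 was at −0.74 with adjusted p = 0.000156; leaving out other libraries took the general count as low as 0.

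Set directly against siFOXA1 in SKBR3, siTLE3 libraries were higher in 2 and lower in 0 of 15 motile members, and higher in 3 and lower in 3 of 20 general members, against 10.7% and 9.24% of genes. The 2 motile genes are outer arm genes, and DNAH5 passed the count filter through its siTLE3 libraries only, so its difference is a description. DNAH5 had 2.72, 2.54 and 3.00 CPM under siTLE3 and 0.712, 0.291 and 0.315 CPM under siFOXA1 (2.68 (0.38), adjusted p = 0.00137), and DNAI1 had 3.44, 3.33 and 3.66 CPM against 1.92, 1.37 and 1.04 CPM (1.29 (0.27), adjusted p = 0.00974). BBS4 and IFT140 were higher under siTLE3 by 0.52 and 0.45, and IFT122 was lower (−0.59). Without siTLE3 1 the differences of DNAI1, BBS4, IFT140 and IFT122 were all called, at 1.30, 0.49, 0.47 and −0.48. That of DNAH5, a description, was 2.70. The DNAI1 call held whichever library was left out. The BBS4 call was lost without any 1 of the 3 siFOXA1 libraries (adjusted p of up to 0.0948), the IFT140 call without any of these or siTLE3 2 (up to 0.0975), and the IFT122 call without siFOXA1 1 or siFOXA1 2 (up to 0.0654).

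In MDA-MB-453, TLE3 silencing raised 1 and lowered 1 of 19 motile members, and lowered 7 of 20 general members while raising none, against 15.7% of genes called higher and 16.3% called lower. General members thus fell in more than the background share; the number called ran from 3 to 9 when single libraries were left out. IFT122, the IFT-A core subunit, had 36.3, 35.8 and 32.3 CPM under siTLE3 against 45.3, 51.4 and 47.4 CPM under siNS (−0.48 (0.08), adjusted p = 0.000511). IFT172, a large IFT-B protein that in Chlamydomonas acts in turnaround at the ciliary tip, had 19.6, 19.96 and 21.7 CPM against 29.4, 30.2 and 23.4 CPM (−0.46 (0.11), adjusted p = 0.00438). Neither gene's groups overlapped.

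IFT81 and IFT52 fell here as well. IFT81 had 6.09, 7.65 and 6.94 CPM under siTLE3 against 8.71, 9.93 and 10.98 CPM under siNS (−0.54 (0.15), adjusted p = 0.0117), and IFT52 had 31.7, 34.4 and 31.7 CPM against 37.4, 35.5 and 43.7 CPM (−0.27 (0.09), adjusted p = 0.0331). BBS9, a scaffold subunit of the BBSome, BBS5 and IFT80 fell by 0.63, 0.45 and 0.46. Of these, IFT81 lost its call without siTLE3 1 or siNS 4 (adjusted p of up to 0.0662), IFT52 in 4 of 6 runs (up to 0.179) and BBS5 in 5 (up to 0.153). General members summed to 382 to 389 CPM under siTLE3 and 434 to 441 CPM under siNS.

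Of the motile members, RSPH3 rose to 13.8, 13.7 and 12.1 CPM under siTLE3, against 10.4, 10.0 and 10.6 CPM under siNS (0.34 (0.12), adjusted p = 0.0381). DNAH7, an inner arm heavy chain, fell to 0.419, 0.472 and 0.368 CPM, against 1.16, 0.573 and 1.33 CPM (−1.29 (0.46), adjusted p = 0.0467). It passed the count filter through its siNS libraries only, so the difference is given as a description. Both genes' groups were apart, but each call was lost in 5 of 6 runs that left out a library, with adjusted p of up to 0.121 and 0.154. FOXJ1 was at or under 0.421 CPM in every MDA-MB-453 library and not listed in SKBR3.

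FOXA1 silencing in MDA-MB-453 raised 5 and lowered 2 of 17 motile members and raised 2 and lowered 5 of 20 general ones, against 23.4% of genes called higher and 23.7% called lower. Over all members tested, the shares of motile members that rose and of general members that fell were both near the background. Of the 5 risen motile members, 1 is DNAH10OS, which is not a dynein. Among the 13 motile members that passed the count filter in both groups, 5 rose and 1 fell, against 24.5% and 25.2% of all such genes. The same 5 members rose in both counts. The higher share in that set comes from the members it leaves out, and the set was formed after seeing the data. Motile members summed to 165 to 170 CPM under siFOXA1 and 133 to 148 CPM under siNS. Of the heavy chains of inner arms, 2 rose: DNAH1 had 9.40, 10.4 and 10.6 CPM under siFOXA1 against 7.29, 4.44 and 5.30 CPM under siNS (0.81 (0.17), adjusted p = 0.000812), and DNAH10 had 3.80, 5.05 and 4.66 CPM against 2.46, 2.58 and 2.07 CPM (0.90 (0.23), adjusted p = 0.00359). DNAH10OS, which overlaps DNAH10 over 8561 bases on the other strand, was called with it (0.58, adjusted p = 0.0394), and it also lies over those 8561 bases within CCDC92 on the same strand. All 3 were higher in every siFOXA1 library. DNAL4 had 22.7, 24.3 and 19.5 CPM against 15.4, 13.5 and 13.3 CPM (0.64 (0.11), adjusted p = 0.00013); it overlaps SUN2 over 15636 bases on the same strand, so its reads may be mixed with those of SUN2. RSPH3 had 16.4, 13.7 and 16.0 CPM against 10.4, 10.0 and 10.6 CPM (0.56 (0.12), adjusted p = 0.000896).

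TEKT5 was lower in this line at few reads: it had 0, 4 and 3 reads under siFOXA1 against 23, 16 and 50 under siNS (−3.50 (0.73), adjusted p = 0.000585). It passed the count filter through its siNS libraries only, so the difference is given as a description. Each siNS library lay above every siFOXA1 library. DNAL1 fell to 6.53, 7.22 and 6.07 CPM, against 9.92, 11.5 and 10.5 CPM (−0.70 (0.14), adjusted p = 0.000515).

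IFT46 was the clearest of the general members. It had 54.5, 51.6 and 54.5 CPM under siFOXA1 against 32.1, 37.9 and 33.4 CPM under siNS (0.62 (0.08), adjusted p = 4.94e-06). BBS10, a chaperonin-like protein that folds BBSome subunits, rose by 0.46, with 11.3 to 16.8 CPM under siFOXA1 and 9.79 to 11.04 CPM under siNS, and lost its call in 2 of 6 runs that left out a library. The BBSome subunits BBS4, BBS5 and BBS7 fell by 0.40, 0.51 and 0.42, IFT27 fell by 0.37, and IFT81 fell by 0.49 (adjusted p = 0.0104, 0.0504 without siNS 4).

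Set against siFOXA1 in MDA-MB-453, siTLE3 was higher in 4 and lower in 4 of 18 motile members and higher in 2 and lower in 8 of 20 general ones, against 27% and 26.1% of genes. Of the motile members called, TEKT5, DNAH8 and DNAH3 passed the count filter through their siTLE3 libraries only, and DNAH7 and RSPH1 through their siFOXA1 libraries only. Of the 11 motile members that passed it in both groups, 1 was higher and 2 lower, against 28.5% and 27.2% of all such genes. The smallest p-value belonged to IFT46, at 36.3, 37.1 and 35.4 CPM under siTLE3 and 54.5, 51.6 and 54.5 CPM under siFOXA1 (−0.55 (0.06), adjusted p = 1.53e-07). DNAL4 (−0.65), IFT172 (−0.51), IFT140 (−0.45) and IFT122 (−0.44) were also lower under siTLE3.

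Some calls recurred across lines. IFT81 and IFT52 fell under siTLE3 in all 3 lines, 2 of the 32 members tested in all 3, against 148 of 12446 genes (1.19%). As given above, both SKBR3 calls and both MDA-MB-453 calls were lost in some runs that left out a library. IFT81 also fell under siFOXA1 in SKBR3 and MDA-MB-453, the exception being T47D siFOXA1, where it was at 36.6, 39.2 and 36.5 CPM against 40.4, 41.6 and 42.5 CPM in siNS. RSPH3 rose in 4 of 6, under both siRNAs in T47D and MDA-MB-453. Its MDA-MB-453 siTLE3 call was, as given above, lost in most runs that left out a library. How many of all genes recurred as often as RSPH3, or as IFT81 over both siRNAs, was not counted. The comparisons of 1 line share its siNS libraries, so they are not independent of each other.

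**Figure D4:**
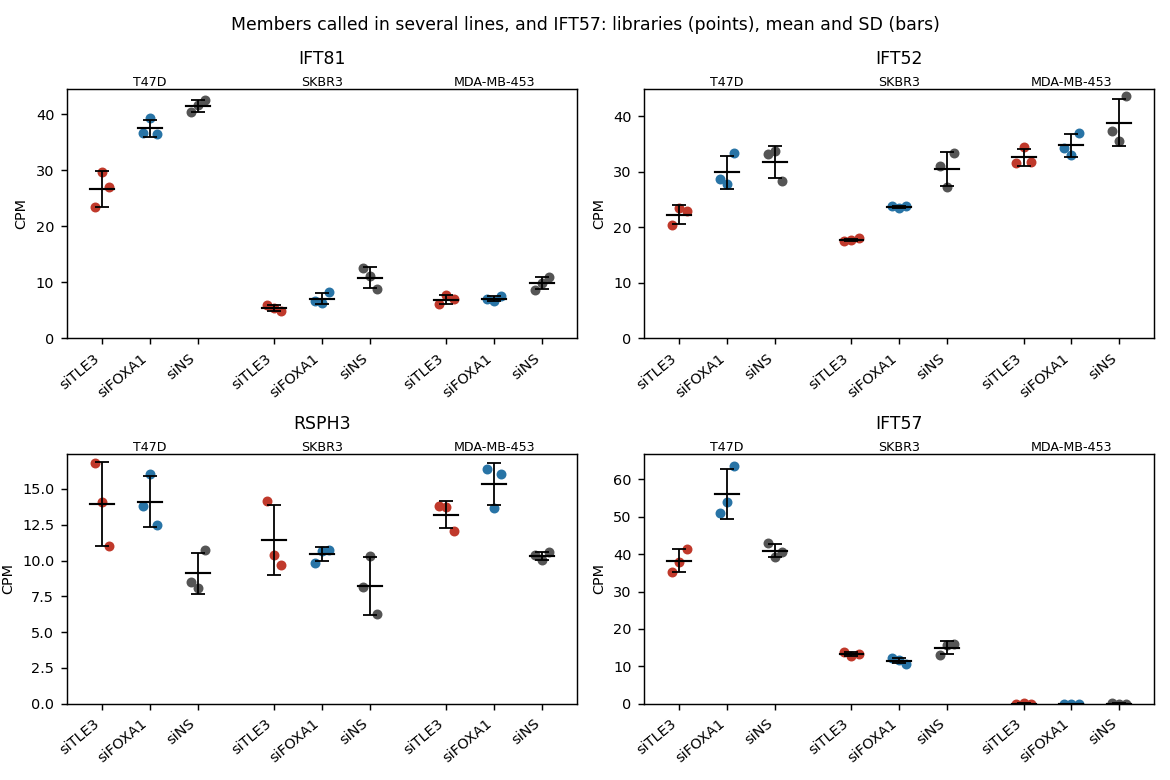
CPM of IFT81, IFT52, RSPH3 and IFT57 in each library (points) of the 9 groups, with siTLE3, siFOXA1 and siNS left to right within each line and the mean (line) and SD (bar, n = 3). IFT81 and IFT52 lie lower under siTLE3 than under siNS in all 3 lines, and IFT57 is close to 0 in MDA-MB-453.

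Other members changed in one line and not in another, and this was tested as a difference of the siRNA effect between lines. For siTLE3, 3 of 23 motile and 1 of 21 general members differed, against 12.1% of all genes; for siFOXA1, 8 of 22 and 7 of 21 differed, against 33.8%. The shares are close to the background or below it. DNAH5 was at 1.33 in T47D, 0.09 in SKBR3 and 0.14 in MDA-MB-453 under siTLE3 (adjusted p = 0.00872), and at 0.24, −2.57 and 0.13 under siFOXA1 (adjusted p = 4.57e-05). Without SKBR3 siTLE3 1 and siNS 3, DNAH5 in SKBR3 was at −0.05 under siTLE3 (adjusted p between lines = 0.00135) and at −2.73 under siFOXA1 (5.68e-06). The same gene thus rose in T47D after TLE3 silencing. Its lower level in SKBR3 after FOXA1 silencing is a description, since it passed the count filter there through its siNS libraries only.

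IFT46 was at 0.41, −0.37 and 0.05 in T47D, SKBR3 and MDA-MB-453 under siTLE3 (adjusted p = 0.00624) and at 0.09, −0.40 and 0.62 under siFOXA1 (adjusted p = 7.06e-05). RSPH1 was at 0.21, −1.88 and −0.70 under siTLE3 (adjusted p = 0.0215) and at 0.91, −1.36 and 0.29 under siFOXA1 (adjusted p = 0.000278). In SKBR3 siTLE3 cells RSPH1 passed the count filter through its siNS libraries only, so that value is a description. Its spoke head role is shared with RSPH4A, which among the comparisons with siNS was called only in T47D siTLE3 and was not tested in SKBR3. DNAI1 was at 1.57 in T47D and −0.10 in SKBR3 under siTLE3 (adjusted p = 0.0148). In MDA-MB-453 alone its counts were under the filter, but its reads there also enter that joint test. Without those 2 SKBR3 libraries, the SKBR3 values under siTLE3 were −0.24 for IFT46 (adjusted p between lines = 0.00101), −2.23 for RSPH1 (0.00227) and 0.01 for DNAI1 (0.00961). Under siFOXA1 they were −0.28 for IFT46 (2.55e-06) and −1.12 for RSPH1 (0.000448). In the same runs the siTLE3 effect differed between lines in 7 of 23 motile and 5 of 21 general members, against 26.1% of all genes. The siFOXA1 effect differed in 9 and 10, against 44.1%. The siTLE3 results of these runs carry the limit given above for SKBR3 without that pair.

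**Figure D5:**
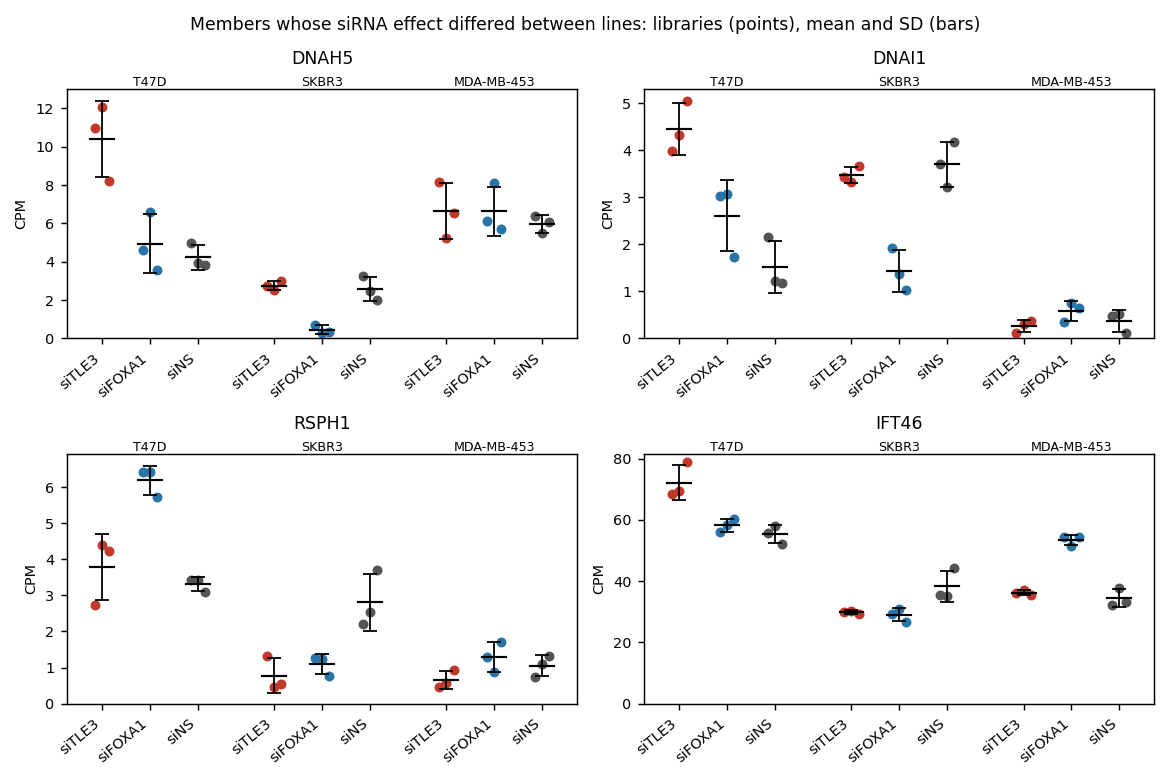
CPM of DNAH5, DNAI1, RSPH1 and IFT46 in each library (points) of the 9 groups, with siTLE3, siFOXA1 and siNS left to right within each line and the mean (line) and SD (bar, n = 3). DNAH5 and DNAI1 are high under siTLE3 in T47D and low under siFOXA1 in SKBR3, and IFT46 is high under siFOXA1 in MDA-MB-453.

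Cilium genes that carry other symbols were counted from lists of textbook members. These lists were chosen with earlier results of these data known, so their counts are a description. In T47D siTLE3 cells, where 25.3% of all genes rose and 26.6% fell, 18 of 40 other axonemal genes tested rose and none fell. Of the 31 that passed the count filter in both groups, 15 rose and none fell, with a median of 0.44, against 25.1% and 29.5% of all such genes. AK8, an adenylate kinase, rose by 1.72. RP1, a microtubule protein of axonemes, ROPN1L, a spoke-associated protein, and NME5 were tested because of their siTLE3 reads: RP1 had 60, 70 and 47 reads under siTLE3 against 0, 4 and 0 under siNS, ROPN1L 32, 32 and 34 against 4, 5 and 6, and NME5 49, 76 and 81 against 12, 9 and 16. Of 12 further dynein assembly genes, 4 rose and 2 fell. Of 19 transport genes with other symbols, 5 rose and 9 fell: HSPB11, an IFT-B subunit, was at 1.28 and KIF3A, a motor subunit of kinesin-2, at −1.03. Of 21 regulators of multiciliated cells, 14 rose and 3 fell, and of the 18 that passed the filter in both groups, 11 rose and 3 fell, with a median of 0.35. MCIDAS, which starts the multiciliated programme, rose by 3.66 (19.3 to 22.8 CPM under siTLE3 against 1.48 to 1.81 CPM under siNS), and GMNN, geminin, fell by 1.37. CDC20B, FOXJ1 and FOXN4 passed through their siTLE3 libraries only: CDC20B had 749, 850 and 544 reads under siTLE3 against 1, 0 and 4 under siNS, and FOXN4 had 111, 111 and 65 against 6, 0 and 0. Of 13 BBSome partners, 2 rose and 2 fell. The counts of the assembly genes that rose and of the transport genes that rose were near the background.

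The same lists were counted in the other comparisons, where the shares of all genes that rose and fell were 26% and 26.8% (T47D siFOXA1), 3.67% and 1.99% (SKBR3 siTLE3), 10.4% and 8.75% (SKBR3 siFOXA1), 15.7% and 16.3% (MDA-MB-453 siTLE3) and 23.4% and 23.7% (MDA-MB-453 siFOXA1). Most of the counts below rest on few genes, and several lie near these shares. Of the other axonemal genes tested, 7 rose and 5 fell of 38 in T47D siFOXA1 cells, 1 and 1 of 21 in SKBR3 siTLE3 cells, 0 and 2 of 21 in SKBR3 siFOXA1 cells, 3 and 1 of 25 in MDA-MB-453 siTLE3 cells, and 4 and 4 of 25 in MDA-MB-453 siFOXA1 cells. Tested directly, 21 of 40 were higher and 2 lower under siTLE3 than under siFOXA1 in T47D, against 22.5% and 21.8% of all genes; of the 33 that passed the count filter in both groups, 18 were higher and 2 lower. For the regulators the counts of risen and fallen genes were 5 and 6 of 18, 2 and 1 of 14, 2 and 2 of 14, 6 and 4 of 16, and 4 and 7 of 16 in the same order. The other transport genes rose and fell in 4 and 5, 1 and 0, 2 and 0, 3 and 6, and 3 and 6 of 19 cases.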

How the data were processed

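Whole-gene counts, log2 values, FPKM, normalised counts and p-values for 27 libraries (9 groups of 3) came from 6 tables, each holding 1 siRNA and siNS of 1 line. Per the submitters' processing notes, the authors used STAR 2.5, HTSeq 0.6.1 and DESeq2 with hg19; their roles and settings are not given in the sources used here. The deposited counts are whole reads per gene. The deposited FPKM of the authors equal counts divided by gene length and library total, within 0.0205%, and FPKM were computed here in that way for all libraries. The deposited signal columns (size-factor normalised counts), log2 fold changes and p-values of the authors were not used for tests. Columns were matched to samples by name; 3 groups carry numbers other than those of the labels and were matched by column name to the group only; of these groups the count columns were used, and the FPKM and normalised columns (30 in all) were not used.

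Each comparison was fitted with edgeR 4.0.16 (TMM, filterByExpr, quasi-likelihood F test, 2-sided) in R 4.3.3 over all genes of the tables, with Benjamini-Hochberg adjustment and a threshold of 0.05. CPM used TMM factors within each line (0.931 to 1.07) and are therefore compared between lines only with that in mind. Depth was 15968223 to 26208135 counts per library, and intervals on counts cover counting error only. The fit was tested on simulated data. Alternatives were RLE scaling, no low-count filter, DESeq2 1.42.0, 1 fit of all 9 libraries of a line, each library left out, a replicate block, and SKBR3 siTLE3 1 and siNS 3 left out together. Counts over members that passed the filter in both groups, and a marker sum without FOXJ1, were added after seeing the data; such counts leave out genes that are near 0 in 1 group. Same-numbered SKBR3 libraries correlated at −0.218 to 0.730 in their deviations and same-numbered MDA-MB-453 siTLE3 and siFOXA1 libraries at −0.049 to 0.004. Between SKBR3 siTLE3 and siNS, libraries 1 correlated at 0.626 and libraries 3 at 0.730, but libraries 2 at −0.218, and siTLE3 1 with siNS 2 at 0.539. The numbers were not taken to pair libraries, and the main fit leaves out this shared pattern.

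The members and lists were chosen with earlier results of these data known. The genes named per comparison were up to 8 motile and 6 general called members of largest fold change, those called in 2 or more lines or with both siRNAs in opposite directions, the 2 most abundant of each class under siNS, the 5 smallest p-values between siRNAs and between lines, and up to 4 called genes per list; other called members complete the counts. Promoter windows were RefSeq GRCh38.p14, with 46 of 54 members matched.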

Additional observations from a re-analysis of the deposited data

Results flagged for a closer look

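In 19 cases the effect of an siRNA on a member differed between the 3 lines by edgeR's quasi-likelihood test of the line-by-siRNA terms, with Benjamini-Hochberg adjusted p as follows. For siTLE3 these were IFT46 (0.00624; T47D 0.41, SKBR3 −0.37, MDA-MB-453 0.05), DNAH5 (0.00872; 1.33, 0.09, 0.14), DNAI1 (0.0148; 1.57 in T47D and −0.10 in SKBR3) and RSPH1 (0.0215; 0.21, −1.88, −0.70). For siFOXA1 these were DNAH5 (4.57e-05; 0.24, −2.57, 0.13), IFT46 (7.06e-05; 0.09, −0.40, 0.62), RSPH1 (0.000278; 0.91, −1.36, 0.29), DNAL4 (0.000494; 0.32, −0.45, 0.64), IFT122 (0.00236; −0.55, 0.14, −0.02), DNAI1 (0.00439; 0.80, −1.37, 0.58), BBS2 (0.00565; 0.30, −0.34, −0.14), IFT140 (0.0103; −0.28, −0.39, 0.19), IFT74 (0.0196; 0.39, −0.20, 0.21), DNAL1 (0.0249; 0.05, 0.02, −0.70) and IFT27 (0.0352; −0.07, −0.66, −0.37). Members with a value in 2 lines were DNAH10OS (0.00385; −1.19 in T47D and 0.58 in MDA-MB-453), IFT57 (0.00509; 0.46 in T47D and −0.38 in SKBR3), DNAAF3 (0.0254; −0.63 in T47D and 0.14 in MDA-MB-453) and DNAH10 (0.0316; −0.71 in T47D and 0.90 in MDA-MB-453). Each adjusted p is from a joint test over all 3 lines, so reads of a line without a value also enter it. For DNAAF3 in SKBR3 these were 6, 19 and 11 reads under siFOXA1 against 7, 0 and 3 under siNS. Of all genes, 12.1% and 33.8% differed between lines for siTLE3 and siFOXA1. The SKBR3 values of DNAH5 under siFOXA1 and of RSPH1 under siTLE3 are descriptions, because each passed the count filter there through its siNS libraries only.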

How the results depend on the processing

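Of 97 values of named members, 32 lost their call in at least 1 run that left out a library; of the settings tried for named values and counts, 996 kept direction and call, 48 counts moved by over 1.5 times, 131 values lost their call, 5 gained one and 7 changed sign. In SKBR3 siTLE3 against siNS, the motile count was 2 with DESeq2, 2 in the fit of all 9 libraries and 3 with the replicate block, and the general count was 6 with the block and 7 without siTLE3 1 and siNS 3. In SKBR3 siFOXA1 against siNS, the general count was 2 without the filter, and the block gave 3 motile and 1 general. In MDA-MB-453 siTLE3 against siNS, the motile count was 1 without the filter and 0 with DESeq2. The siTLE3 effect differed between lines in 7 motile and 5 general members without the SKBR3 pair of libraries, when 26.1% of all genes did. With 1 library left out, motile counts ran from 9 to 12 (T47D siTLE3), 6 to 10 (T47D siFOXA1), 10 to 12 (T47D siTLE3 against siFOXA1), 0 to 1 (SKBR3 siTLE3), 2 to 6 (SKBR3 siFOXA1), 2 to 5 (SKBR3 siTLE3 against siFOXA1), 0 to 1 (MDA-MB-453 siTLE3), 6 to 8 (MDA-MB-453 siFOXA1) and 7 to 9 (MDA-MB-453 siTLE3 against siFOXA1). General counts ran from 5 to 8, 6 to 9, 8 to 10, 0 to 2, 0 to 12, 0 to 10, 3 to 9, 4 to 10 and 8 to 10 in the same order. Sign changes fell on values near 0 that were not called: in MDA-MB-453 siTLE3, DNAH14 was at 0.0071 without the filter and ran from −0.10 to 0.059 with 1 library left out, and IFT27 ran from −0.12 to 0.025; in MDA-MB-453 siFOXA1, IFT122 ran from −0.11 to 0.039. The cause was not tested for any of these. No paired analysis was possible because column numbers of T47D siTLE3 and siNS and of MDA-MB-453 siNS are not those of the labels; the block was used for SKBR3 and for MDA-MB-453 siTLE3 against siFOXA1. Members with few reads, most of them motile, are limited by depth.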
